A study of Macaca fascicularis with 8 samples.

Results

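The Frizzled genes encode the receptors of WNT ligands. The 10 genes FZD1 to FZD10 were looked up by name in a table of 33121 genes, measured by RNA sequencing (polyadenylated RNA) of embryonic stem cells (ESCs) of the cynomolgus monkey, Macaca fascicularis. A row was taken where the table's own gene name was the member's symbol or, failing that, where the first protein match named that Frizzled protein with at least 85% identity. The table named none of the 10 directly. The protein match gave 1 row for each of 9 members, at 98.3% to 100% identity, and gave no row for FZD9, which was not analysed here. The matched stretch ran from 354 residues (FZD8, whose row has 1743 bases) to 706 residues (FZD6). Where several rows fitted, the row was to be chosen by its mean RPKM (reads scaled to gene length and to library depth) over the 8 libraries, but no member had several.

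The series compared 4 libraries of primed ESCs with 4 of dome-shaped ESCs, all labelled as the same species and as embryonic stem cells with no transgene named. Primed cells formed flat colonies, passaged weakly as single cells and grew in CESM, a mixture of the PSGro stem cell medium and a conventional medium for monkey ESCs. Dome-shaped cells formed dome-shaped colonies, passaged strongly as single cells and grew in NHSMV, which held bFGF, TGF-β1, LIF, insulin and Vitamin C with 5 kinase inhibitors: CHIR99021 (3 μM, against GSK3), PD0325901 (against MEK), SP600125 (against JNK), and SB203580 and SB202190 (both against p38). Medium, colony shape and group coincide, so their parts in any difference cannot be told apart. The labels do not say that libraries of a group came from separate cultures or animals, so p-values measure only the spread between these libraries, which may be technical. The titles also carry a number after CES that the labels do not explain and that may mark a cell line. Primed replicates 3 and 4 share a number, as do dome-shaped replicates 1 and 2, so the 4 libraries of each group may stand for 3 lines. The numbers 1, 2 and 3 occur in both groups, and replicate 4 of each group carries number 3. The titles of replicate 4 of both groups also share a further number that no other title holds. Those of dome-shaped replicates 1 and 2 differ from each other in a further mark. The labels explain neither.

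Frizzled proteins are multipass membrane receptors with an extracellular cysteine-rich domain that binds WNT. In the beta-catenin branch of the pathway, WNT joins a Frizzled to the co-receptor LRP5 or LRP6, Dishevelled is recruited to the membrane and the GSK3-containing complex that marks beta-catenin for destruction is held back. CHIR99021 inhibits GSK3 itself and so acts downstream of the receptors. Frizzleds also work in planar cell polarity and other branches that do not use beta-catenin. By sequence the family falls into subfamilies, of which FZD1, FZD2 and FZD7, FZD5 and FZD8, FZD3 and FZD6, and FZD4, FZD9 and FZD10 are the usual groups. FZD7 is known as the predominant Frizzled of human pluripotent stem cells.

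The libraries held 14400000 to 18080000 reads, as implied by the steps of the RPKM values. All 4 primed libraries and dome-shaped replicates 1 to 3 lay apart on the first principal component (49.3% of the variance), at -37 to -28.6 and 40.7 to 41.1, and dome-shaped replicate 4 lay between them at 9.9. It is therefore named separately below. Markers of pluripotent cells were present in all 8 libraries, but 4 of the 8 tested were called lower in the dome-shaped group and 0 higher, where 7.96% and 6.38% of all genes tested were. SOX2 stood at 172 to 322 RPKM. NANOG stood at 116 to 163 RPKM in primed and 53.4 to 113 RPKM in dome-shaped libraries (limma adjusted p = 0.0836). LIN28A stood at 964 to 1183 RPKM in primed and 733 to 954 RPKM in dome-shaped libraries (adjusted p = 0.0608). SOX2, NANOG and LIN28A were thus not called, while POU5F1 was paired with no row and was not analysed here. Among those called lower, DNMT3B stood at 744 ± 143 and 393 ± 186 RPKM (limma adjusted p = 0.0419) and ZFP42 at 88.5 ± 10.7 and 52.3 ± 7.93 RPKM (adjusted p = 0.00780) in the primed and dome-shaped groups.

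FZD10 and FZD3 rose and FZD5, FZD8 and FZD6 fell in dome-shaped relative to primed ESCs, while FZD1, FZD2, FZD4 and FZD7 were not called. Calls are those of limma on log2(RPKM + 1), with Benjamini-Hochberg adjusted p under 0.05 over the 15597 genes that reached 1 RPKM in 4 or more libraries. All 9 members with a row passed that filter. FZD10 passed it through the dome-shaped libraries, since only 2 primed libraries reached 1 RPKM. Of the 9 members, 2 were called higher, where 6.38% of all genes tested were, and 3 were called lower, where 7.96% of all genes tested were. In either direction 14.3% of genes tested were called. The members' median log2 fold change was 0.11 and that of all genes tested 0.03, so the family as a whole did not move one way. Groups did not overlap for 4 members, 2 higher (FZD3 and FZD10) and 2 lower (FZD5 and FZD8), against 22.2% of genes tested (11.5% higher and 10.7% lower). These counts describe the family and are no test of it. In bulk RNA, fewer cells that express a gene and less RNA per cell cannot be told apart.

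**Figure D1:**
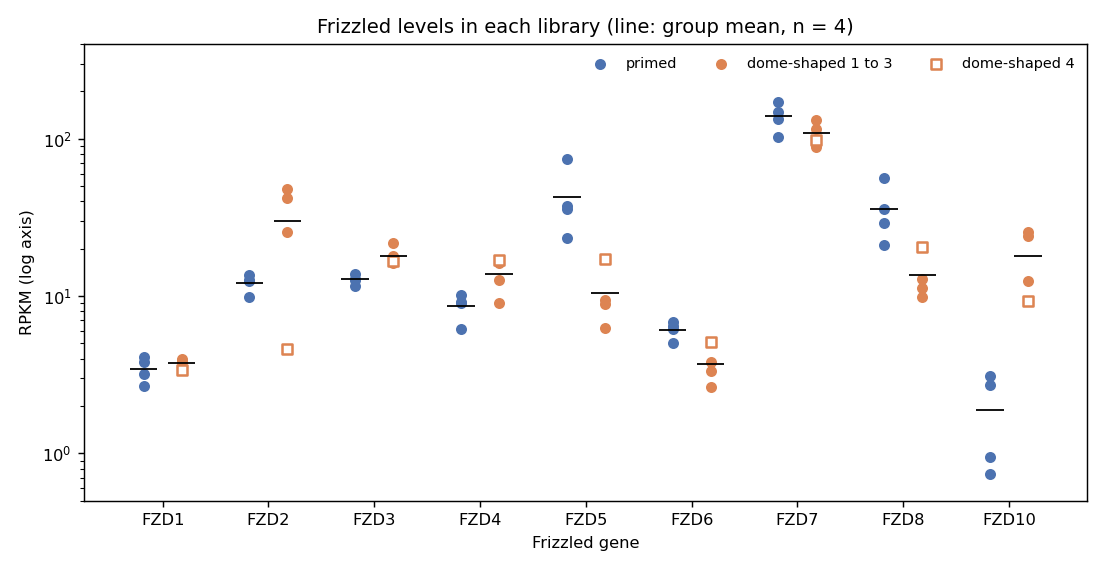
RPKM (log axis) of the 9 Frizzled genes with a row in each of the 8 libraries; points are libraries, the open square is dome-shaped replicate 4 and lines are group means (n = 4). FZD7 was the highest member in every library, FZD10 lay higher and FZD5 and FZD8 lower in all 4 dome-shaped libraries than in any primed library, and FZD2 in dome-shaped replicate 4 (4.596 RPKM) lay below all primed libraries.

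FZD7 was the most abundant Frizzled in both groups. It stood at 133, 147, 102 and 172 RPKM in primed replicates 1 to 4 and at 131, 89.2, 115 and 98.8 RPKM in dome-shaped replicates 1 to 4. The groups overlapped, and the means of 139 ± 29.1 and 109 ± 18.5 RPKM (SD, n = 4 each) were not called different by limma (log2 fold change -0.34, 95% interval -0.72 to 0.04, adjusted p = 0.197). In primed cells FZD7 was followed by FZD5 (42.9 ± 22.0 RPKM), FZD8 (35.5 ± 14.9), FZD3 (12.8 ± 0.902), FZD2 (12.2 ± 1.61), FZD4 (8.62 ± 1.71), FZD6 (6.12 ± 0.768), FZD1 (3.43 ± 0.640) and FZD10 (1.88 ± 1.21). Among neighbours in that order, only FZD7 and FZD5, FZD8 and FZD3, and FZD6 and FZD1 had ranges that did not overlap. In dome-shaped cells the order was FZD7, FZD2, FZD3, FZD10, FZD4, FZD8, FZD5, FZD1 and FZD6, and only FZD7 and FZD2, and FZD5 and FZD1, were neighbours with separate ranges. FZD10 thus moved from the lowest mean in primed cells to 17.9 ± 8.21 RPKM, beside FZD3 at 18.1 ± 2.46 RPKM. Levels compare genes per length. The lengths listed for FZD1, FZD2, FZD4, FZD5, FZD8 and FZD10 were multiples of 3, from 1389 to 1791 bases, as a coding length would be, and those of FZD3, FZD6 and FZD7 ran from 3749 to 3907 bases. Levels across those 6 and those 3 genes therefore rest on different kinds of gene model.

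FZD10 (ENSMMUG00000006912 in the table), a WNT receptor of the FZD4, FZD9 and FZD10 subfamily, rose most. Primed replicates 1 to 4 stood at 0.952, 3.10, 0.743 and 2.72 RPKM, and dome-shaped replicates 1 to 4 at 12.4, 24.1, 25.7 and 9.36 RPKM. Every dome-shaped library, replicate 4 included, lay above every primed library, and the mean was 9.51-fold higher. The log2 fold change on the RPKM + 1 scale was 2.70 (SE 0.39, limma adjusted p = 0.00394). It stayed called whichever library was left out, at 2.49 to 2.95 with adjusted p up to 0.0154. The primed values rested on few reads, 27, 87, 23 and 78 as implied by the table, against 231 to 777 in the dome-shaped libraries. AXIN2, the feedback inhibitor that WNT signalling induces, stood at 5.32 to 11.45 RPKM in the primed libraries. Its dome-shaped values were 48.0, 53.7 and 63.7 RPKM, with the lowest, 28.3 RPKM, in replicate 4. NKD1 (1.00 to 2.03 RPKM primed, 4.63 to 14.7 dome-shaped) and SP5 (1.87 to 11.99 and 27.7 to 84.1 RPKM), further WNT targets, were likewise lowest of the dome-shaped group in replicate 4 and above all primed libraries there. LEF1 was not: it stood at 0.820 RPKM in replicate 4, within the primed range of 0.580 to 2.56 RPKM, and at 6.55, 13.5 and 17.9 RPKM in dome-shaped replicates 1, 2 and 3. Of these 4 targets, chosen after their values were seen, 3 were called higher by limma (AXIN2, NKD1 and SP5), where 6.38% of all genes tested were. LEF1 was not (adjusted p = 0.112), nor was RNF43, another WNT target (adjusted p = 0.113). Any link of FZD10 to WNT signalling was not tested.

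FZD4, the other member of that subfamily with a row and the receptor of Norrin as well as of WNT, was not called. It stood at 6.17, 8.98, 10.1 and 9.17 RPKM in primed replicates 1 to 4 and at 8.99, 16.3, 12.7 and 17.0 RPKM in dome-shaped replicates 1 to 4. Only dome-shaped replicate 1 fell within the primed range. The log2 fold change was 0.60 (95% interval 0.12 to 1.08, limma adjusted p = 0.0897) over all 8 libraries and 0.77 (adjusted p = 0.0312) without dome-shaped replicate 1.

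FZD5 (ENSMMUG00000013656) and FZD8 (ENSMMUG00000001694), receptors of the same subfamily, both fell. FZD5 stood at 23.5, 35.8, 74.5 and 37.6 RPKM in primed replicates 1 to 4 and at 6.30, 8.87, 9.41 and 17.2 RPKM in dome-shaped replicates 1 to 4. The groups did not overlap, primed replicate 3 was the highest library and dome-shaped replicate 4 was the dome-shaped library nearest to the primed ones. The primed mean was 4.11-fold the dome-shaped mean, with a log2 fold change of -1.90 (SE 0.36, limma adjusted p = 0.0107). Whichever library was left out, FZD5 stayed called lower, at -2.15 to -1.60.

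FZD8 stood at 21.1, 29.3, 56.0 and 35.6 RPKM in primed replicates 1 to 4 and at 9.82, 11.2, 12.9 and 20.6 RPKM in dome-shaped replicates 1 to 4. The groups did not overlap, but the margin between primed replicate 1 and dome-shaped replicate 4 was narrow. The log2 fold change was -1.28 (SE 0.30, limma adjusted p = 0.0225). Leaving out dome-shaped replicate 1 (adjusted p = 0.0530), 2 (0.0659) or 3 (0.0596), or primed replicate 2 (0.0508) or 4 (0.0574), lost the call, with log2 fold changes of -1.50 to -1.04 over the 8 fits. Within each group the libraries fell in the same order for both genes, with primed replicate 3 and dome-shaped replicate 4 the highest of their groups and replicate 1 the lowest of each. The ratio of FZD5 to FZD8 was 1.06 to 1.33 in the primed libraries and 0.641 to 0.834 in the dome-shaped ones. FZD5 thus had the higher RPKM of the pair in primed libraries and the lower in dome-shaped ones. Since their gene models differ, the ratio can be compared between libraries and not read as a ratio of molecules.

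**Figure D2:**
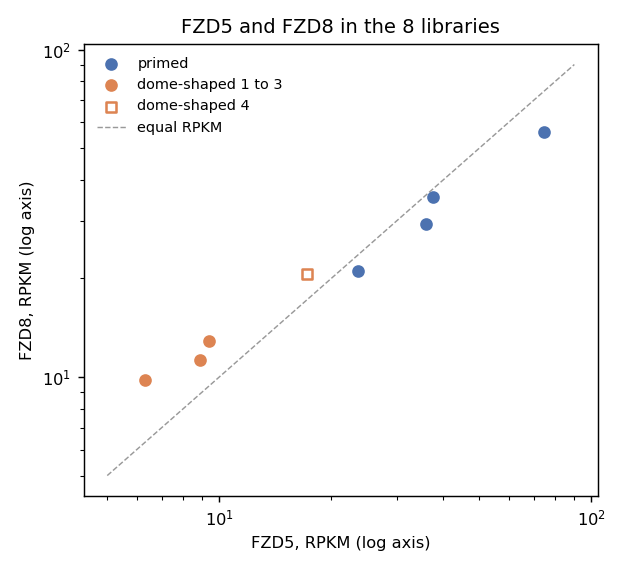
RPKM of FZD8 against FZD5 (both log axes) in the 8 libraries; the dashed line marks equal RPKM. All primed libraries lie below the line and all dome-shaped libraries above it, with dome-shaped replicate 4 (17.2 and 20.6 RPKM) nearest to primed replicate 1 (23.5 and 21.1 RPKM).

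FZD2 (ENSMMUG00000011038), which with FZD1 and FZD7 forms a subfamily, was called only when dome-shaped replicate 4 was left out. Primed replicates 1 to 4 stood at 12.7, 9.86, 12.5 and 13.6 RPKM. Dome-shaped replicates 1 to 3 stood at 41.9, 25.5 and 47.7 RPKM, above every primed library, and replicate 4 at 4.596 RPKM, below every primed library. Over all 8 libraries the log2 fold change was 0.85 (95% interval -0.47 to 2.17, limma adjusted p = 0.351). Without dome-shaped replicate 4 it was 1.54 (adjusted p = 0.00282), and the dome-shaped mean of 38.4 ± 11.5 RPKM (n = 3) was 3.16-fold the primed mean. In that fit 3 members were called higher (FZD2, FZD3 and FZD10) and 3 lower (FZD5, FZD6 and FZD8), beside 8.26% and 9.24% of all genes tested (17.5% in either direction). ROR2, a WNT5A receptor picked after its values were seen, also had its lowest value in dome-shaped replicate 4 (8.53 RPKM, against 15.96 to 28.4 in the other dome-shaped and 13.5 to 17.9 in primed libraries), and so did PTK7, a receptor of planar cell polarity (49.7 RPKM, against 70.9 to 91.5 in the other 7). The co-receptors LRP5, LRP6, ROR1 and RYK did not: ROR1 stood at 28.0 RPKM there, against 18.8 to 26.4 RPKM in the other dome-shaped libraries. FZD1, the remaining member of the subfamily, stood at 2.66, 3.79, 3.18 and 4.10 RPKM in primed replicates 1 to 4 and at 3.998, 3.88, 3.82 and 3.37 RPKM in dome-shaped replicates 1 to 4. The groups overlapped, with a log2 fold change of 0.11 (95% interval -0.22 to 0.45, limma adjusted p = 0.635).

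FZD3 (ENSMMUG00000007486) and FZD6 (ENSMMUG00000019399), the pair known above all from planar cell polarity, moved in opposite directions by small amounts. FZD3 stood at 12.6, 12.9, 11.7 and 13.9 RPKM in primed replicates 1 to 4 and at 16.2, 21.6, 18.01 and 16.6 RPKM in dome-shaped replicates 1 to 4. The groups did not overlap and the log2 fold change was 0.47 (SE 0.11, limma adjusted p = 0.0270). The call was lost without primed replicate 2 (adjusted p = 0.0706), primed replicate 3 (0.0704), dome-shaped replicate 2 (0.0681) or dome-shaped replicate 3 (0.0682), at log2 fold changes of 0.38 to 0.52 over the 8 fits.

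FZD6 stood at 6.85, 5.06, 6.45 and 6.14 RPKM in primed replicates 1 to 4 and at 3.80, 3.35, 2.66 and 5.09 RPKM in dome-shaped replicates 1 to 4. The last of these lay just above primed replicate 2, so the groups overlapped. The log2 fold change was -0.61 (SE 0.18) with a limma adjusted p of 0.0492, just inside the threshold. Leaving out any library other than dome-shaped replicate 4 lost the call: adjusted p was 0.0959, 0.0718, 0.109 and 0.103 without primed replicates 1 to 4 and 0.0748, 0.116 and 0.116 without dome-shaped replicates 1 to 3. It was 0.0164 without dome-shaped replicate 4. Pseudocounts of 0.1 and 0.5, no filter and quantile normalization also lost it (adjusted p = 0.0503 to 0.0856).

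**Figure D3:**
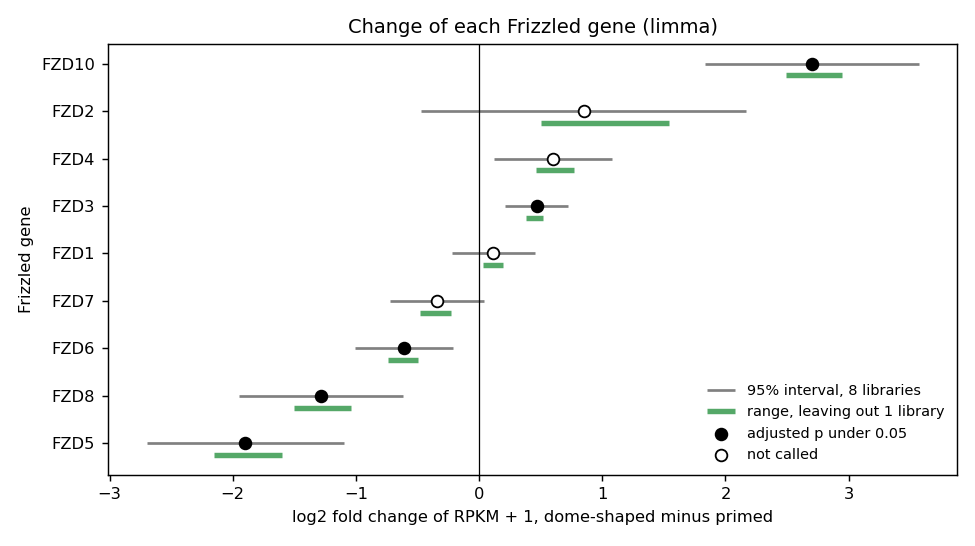
Log2 fold change of RPKM + 1, dome-shaped minus primed, for the 9 members; grey bars are 95% intervals of the limma fit, green bars the range over the 8 fits that leave out 1 library, and filled points passed an adjusted p of 0.05. FZD10 and FZD5 have the largest changes, and the green bar of FZD2 reaches from 0.50 to 1.54.

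The summed level of the 9 genes was 220 to 295 RPKM in primed and 193 to 248 RPKM in dome-shaped libraries, with overlapping ranges, while its make-up differed. FZD5 and FZD8 together made up 20.3% to 47.0% of the sum in the primed group and 6.88% to 19.6% in dome-shaped libraries. FZD4 and FZD10 together made up 3.24% to 4.72% and 9.12% to 19.8%. Neither pair's shares overlapped between the groups. Shares of the other subfamilies did overlap, at 42.5% to 67.6% and 55.4% to 75.5% for FZD1, FZD2 and FZD7. Those of FZD3 and FZD6 were 6.53% to 8.86% and 8.33% to 12.2%. FZD7 alone held 57.5% to 60.6% of the sum in primed replicates 1, 2 and 4, 36.9% in primed replicate 3 and 43.7% to 55.9% in dome-shaped libraries. In primed replicate 3 FZD5 and FZD8 were at their highest and FZD7 at its lowest primed value. The shares mix gene models of both kinds, so a share can be compared between libraries and not read as a share of molecules.

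**Figure D4:**
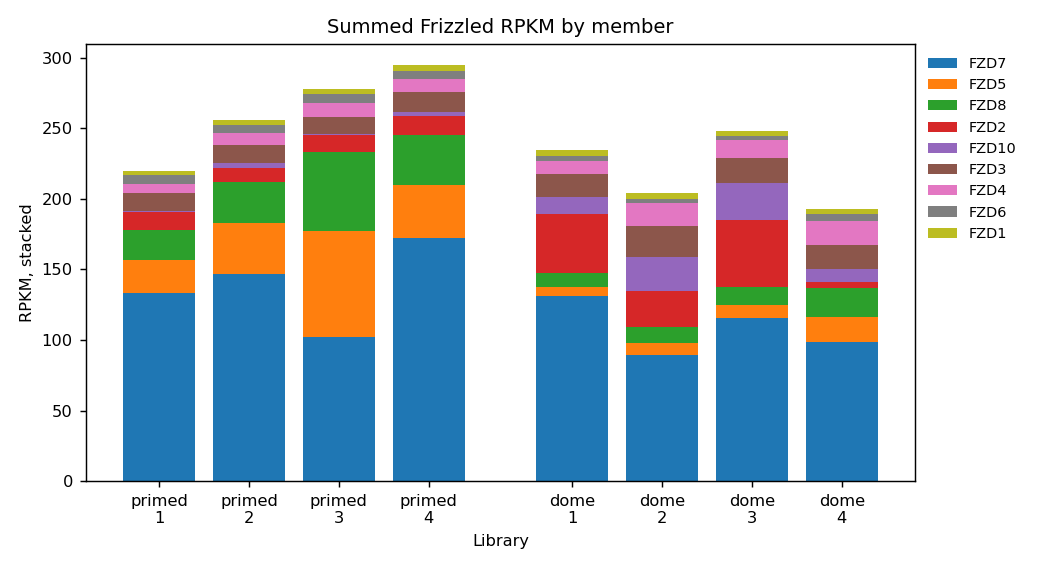
Stacked RPKM of the 9 Frizzled genes in each library. FZD7 is the largest part throughout, FZD5 and FZD8 are thinner in the dome-shaped libraries, FZD10 is visible mainly there, and FZD2 is thick in dome-shaped replicates 1 to 3 and thin in replicate 4.

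Genes for proteins that work with Frizzleds at or near the membrane were called about as often as other genes. A list of 37 such genes had 36 with a row, of which 31 passed the filter. Of these, 1 was called higher (6.38% of all genes tested were) and 3 lower (7.96% were), a share near the 14.3% called in either direction, with a median log2 fold change of -0.05. Among 6 co-receptors only LRP5, the partner of Frizzled in beta-catenin signalling, was called. Its row bears one of the authors' own identifiers and was assigned by the name of its protein match. LRP5 fell from 8.20, 10.1, 9.17 and 10.9 RPKM in primed replicates 1 to 4 to 3.55, 4.53, 5.38 and 4.34 RPKM in dome-shaped replicates 1 to 4 (log2 fold change -0.96, SE 0.14, limma adjusted p = 0.00466). The call was kept in all 8 fits that left out 1 library. Its paralogue LRP6 stood at 19.99 to 22.6 RPKM in primed and 19.0 to 22.1 RPKM in dome-shaped libraries (adjusted p = 0.848). PTK7, the co-receptor with the highest mean, was not called (adjusted p = 0.653).

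Among 6 tested genes of Frizzled turnover only LGR4 was called. LGR4 is the R-spondin receptor that keeps Frizzleds at the surface by holding back the ubiquitin ligases RNF43 and ZNRF3. It stood at 32.3, 33.3, 37.2 and 45.4 RPKM in primed replicates 1 to 4 and at 95.5, 64.2, 63.5 and 53.3 RPKM in dome-shaped replicates 1 to 4. Every dome-shaped library lay above every primed library (log2 fold change 0.86, SE 0.18, limma adjusted p = 0.0145), a call kept in all 8 fits that left out 1 library. RNF43, itself a WNT target, stood at 0.671 to 1.51 RPKM in the primed group and at 3.46, 2.21, 3.26 and 0.944 RPKM in the dome-shaped group (adjusted p = 0.113), and ZNRF3 at 9.99 to 12.4 and 10.3 to 13.6 RPKM (adjusted p = 0.666).

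SFRP1, a secreted protein whose cysteine-rich domain resembles that of Frizzled and binds WNT, was the one called gene of the 3 tested secreted Frizzled-related proteins. It stood at 407, 363, 406 and 408 RPKM in primed replicates 1 to 4, and at 159, 112, 135 and 324 RPKM in dome-shaped replicates 1 to 4, so replicate 4 lay nearest to the primed libraries. All dome-shaped libraries lay below all primed libraries (log2 fold change -1.23, SE 0.27, limma adjusted p = 0.0197), but leaving out dome-shaped replicate 2 (adjusted p = 0.0512) or 3 (0.0587), or primed replicate 4 (0.0504), lost the call. SFRP2 stood at 134 to 215 and 121 to 177 RPKM (adjusted p = 0.640). Of 5 Dishevelled and adaptor genes only DVL3, a cytoplasmic partner of Frizzled, was called lower, at 52.6 ± 4.30 and 39.3 ± 2.91 RPKM (log2 fold change -0.41, SE 0.09, limma adjusted p = 0.0166). That call was lost without primed replicate 2 (adjusted p = 0.0501). A further list held Norrin, whose gene NDP did not pass the filter, and the receptor cofactors TSPAN12, ADGRA2 and RECK. None of these 3 cofactors and none of the 8 planar polarity partners tested was called. With 14.3% of all genes called, such counts show nothing particular to these short lists. Their most abundant genes were TSPAN12, the tetraspanin that assists FZD4 (adjusted p = 0.396), and PRICKLE1 (adjusted p = 0.976).

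**Figure D5:**
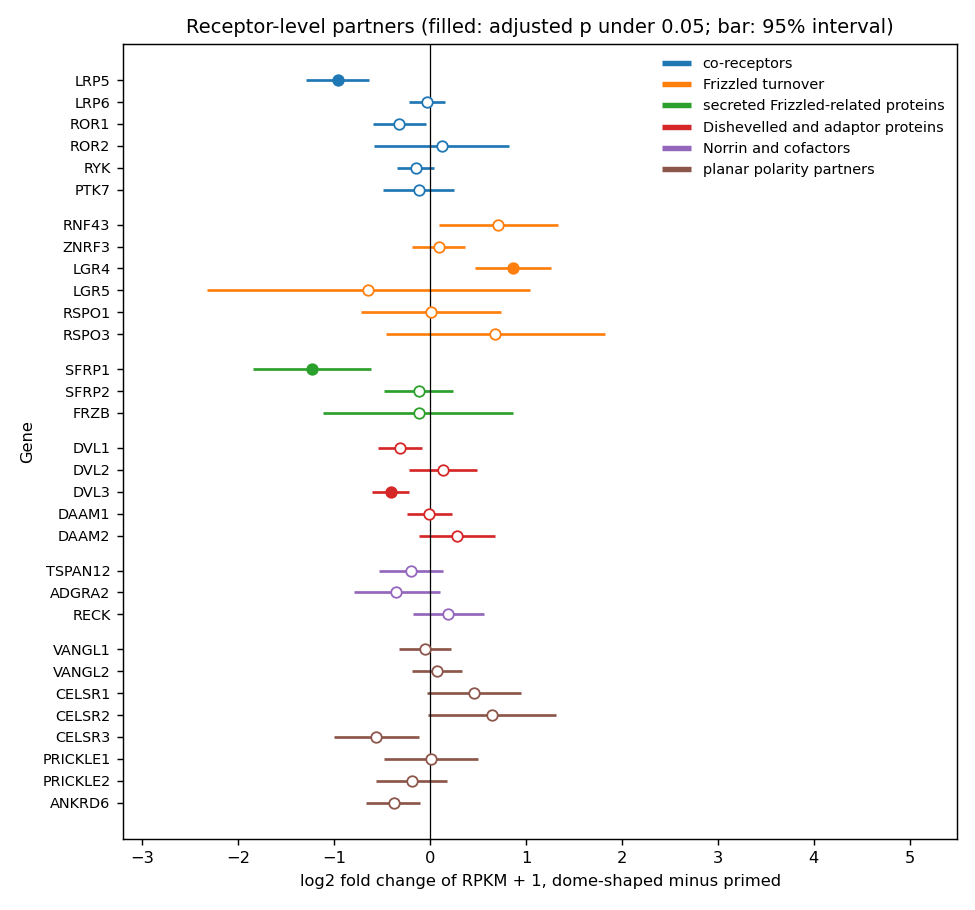
Log2 fold change of RPKM + 1, dome-shaped minus primed, of the 31 tested receptor-level genes by sublist; bars are 95% intervals and filled points passed an adjusted p of 0.05. LRP5, SFRP1 and DVL3 lie to the left and LGR4 to the right, and the other 27 points are open.

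The genes with a deposited symbol whose profile over the 8 libraries was most like that of the 4 members with the largest fold changes were ranked by Pearson's r on log2(RPKM + 1) among 2980 genes. With 2 groups of 4, r mostly reflects the difference between the groups, and it is given as a description. For FZD10 they were HTATSF1 (r = 0.975), TRIM62 (0.974) and KIAA1257 (0.965). For FZD5 they were SPTSSB (0.978), DGKK (0.975) and CCDC17 (0.969), and for FZD8 SPTSSB (0.982), CCDC17 (0.978) and DNAJC19 (0.977), so SPTSSB and CCDC17 ranked among the top 3 for both members of that pair. SPTSSB, a subunit of serine palmitoyltransferase, stood at 1.31 to 5.75 RPKM in the primed group. It was listed at 0 in 3 dome-shaped libraries and at 0.901 RPKM in dome-shaped replicate 4. For FZD2 they were EFNB1 (0.972), ZNF600 (0.969) and HDHD3 (0.955). EFNB1, the ephrin-B1 ligand, shared the low value of FZD2 in dome-shaped replicate 4, at 8.70 RPKM against 27.4 to 36.5 in the other dome-shaped and 10.3 to 16.5 in primed libraries. Because r ignores the size of a change, genes that changed little also ranked high. HTATSF1 stood at 54.9 to 60.1 RPKM in primed and 62.0 to 66.6 RPKM in dome-shaped libraries. DNAJC19 stood at 143 to 172 RPKM in primed and 133 to 143 RPKM in dome-shaped libraries.

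The summed levels of some marker lists of other cell types lay apart between the groups, and those of others overlapped. The summed level of 10 epithelial genes was 911 to 1029 RPKM in primed and 217 to 389 RPKM in dome-shaped libraries, with all 10 called lower and CDH1 at 76.5 to 100.5 RPKM in the primed group and at 1.56, 0.364, 0.205 and 9.96 RPKM in the dome-shaped group. That of 13 mesenchymal and fibroblast genes was 211 to 683 and 666 to 1082 RPKM, with overlap (4 of 10 tested higher and 1 lower). Most of it in dome-shaped libraries was VIM, at 456 to 834 RPKM. In primed replicates 1 to 4 VIM stood at 357, 62.2, 76.8 and 52.5 RPKM, so primed replicate 1 lay apart from the other primed libraries. TWIST1 stood at 1.59 to 7.16 and 30.1 to 68.2 RPKM. COL1A1 (38.8 to 136 and 14.0 to 44.9 RPKM, limma adjusted p = 0.089) and COL3A1 (adjusted p = 0.334) were not called. DCN and POSTN of that list were at or below 0.148 RPKM in all libraries. The sum of 8 neural crest genes was 50.4 to 111 and 20.02 to 39.7 RPKM, that of 7 trophoblast genes 26.7 to 48.3 and 9.39 to 13.9 RPKM, with CGA at 0 in all dome-shaped libraries, and that of 5 endothelial and blood genes 3.68 to 9.81 and 18.4 to 29.0 RPKM, most of it in dome-shaped libraries TEK (16.8 to 23.5 RPKM), with PTPRC at or below 0.0520 RPKM throughout. The sums of 7 neural progenitor (225 to 430 and 298 to 396 RPKM), 7 endoderm (46.5 to 116 and 6.32 to 60.8 RPKM) and 7 primitive streak and mesoderm genes (19.5 to 80.6 and 8.62 to 51.8 RPKM) overlapped between the groups. The sum of 8 pluripotency genes was 2845 to 3458 RPKM in primed libraries and 2880 RPKM in dome-shaped replicate 4, and lay below both, at 1886 to 1960 RPKM, in the other dome-shaped libraries. Among tested genes 2 of 5 neural crest, 2 of 7 endoderm, 1 of 4 primitive streak and 1 of 3 trophoblast markers were called lower, and 2 of 4 neural progenitor and 1 of 2 endothelial and blood markers higher. Of all genes tested 7.96% were called lower and 6.38% higher. The counts of these last lists, of at most 7 tested genes each, show nothing particular to them. The epithelial list differed, with all 10 of its genes called lower where 7.96% of all genes tested were. The part of the marker differences in the Frizzled changes was not tested.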

How the data were processed

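The authors deposited 1 table of RPKM values, 1 column per library, with the bases of each gene sequence and its best protein matches with percent identity. Bowtie2 2.0.6, TopHat2 2.0.9 and HTSeq 0.6.1 are named in the submitters' processing notes, while the sources used here give no genome build and no annotation. The labels' protocols record no strand-specific step, so reads of a gene and of an antisense or overlapping gene cannot be told apart. Of 33138 rows, 17 were blank and left out. The columns of dome-shaped replicates 1, 2 and 3 lack the last characters of their titles and were assigned because no other title fits; columns of other samples numbered 0.

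Multiples of RPKM times length gave each library's depth, with 71.6% to 73.5% of values under 50 reads whole within 0.01 of a read, where chance gives 2%. Replicates differed beyond sampling noise (chi-square per degree of freedom at least 7.68). Partner and marker genes took the row of their deposited name or else of a protein match with at least 85% identity and 0.95 of the best score, and of several rows the one with the highest mean. Members named were all 10 Frizzleds; from the partner list, called genes and the most abundant of each sublist; and the 3 nearest profiles of the 4 largest changes. The WNT targets, ROR2, LRP6, RNF43, ZNRF3, SFRP2 and some markers are outside that rule and were chosen after their values were seen. Tests were limma 3.58.1 in R 4.3.3 (lmFit, eBayes with trend, two-sided, no covariates), checked on simulated data. Members and lists were chosen with earlier results of these data known.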

Additional observations from a re-analysis of the deposited data

Results flagged for a closer look

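In 46 sets of 4 libraries (the 9 Frizzleds, the 7 partner genes the naming rule gave, 4 WNT targets and 3 summary measures, by group), 3 had a library whose gap to the nearest other exceeded Dixon's 95% critical value, where chance flags about 1 in 20. FZD7 made up 36.9% of the summed Frizzled RPKM in primed replicate 3, against 57.5% to 60.6% in the other primed libraries. SFRP1 stood at 363 RPKM in primed replicate 2, against 406 to 408 RPKM in the other primed libraries. PRICKLE1 stood at 52.0 RPKM in dome-shaped replicate 4, against 27.0 to 31.0 RPKM in the other dome-shaped libraries.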

How the results depend on the processing

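The count of Frizzled genes called higher was 1 to 3 and of those called lower 1 to 3 when 1 library was left out (limma, 2 and 3 with all), and the receptor-level counts were 1 to 2 higher and 2 to 4 lower (1 and 3 with all). Over all genes the counts were 381 to 1289 higher and 655 to 1441 lower (995 and 1242 with all). With a replicate block on the CES number of the titles, 1 Frizzled gene and 0 receptor-level genes were called higher, and 303 genes were higher and 593 lower overall; the cause was not tested. Deviations of same-numbered libraries correlated at only -0.098 to 0.125, and the labels do not say what the number marks, so the libraries were not treated as paired. Under the block FZD3 (adjusted p = 0.0970), FZD6 (0.0864), LGR4 (0.0567) and DVL3 (0.0661) were not called, and FZD10, FZD5 and FZD8 were. PRICKLE1 (0.01 with all) changed sign, at -0.01 with median-of-ratios scaling and at -0.19 to 0.14 when 1 library was left out (-0.02 and -0.11 without primed replicates 1 and 3, -0.19 without dome-shaped replicate 4). PTK7 (-0.12 with all) ran from -0.23 to 0.05, the latter without dome-shaped replicate 4. Neither was called in any fit. LEF1, a WNT target, was called higher only without dome-shaped replicate 4 (2.41, adjusted p = 0.00517). Of 338 refits of 20 genes, 302 kept direction and side of the threshold. The all-gene median log2 fold change stayed within 0.003 to 0.039. FZD1 and FZD6 dropped out at a mean of at least 5 RPKM. Implied reads of 23 to 87 in primed libraries limit the precision of FZD10.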

Other observations

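A row of the authors' own identifiers, Novel01242, had FZD5 as its best protein match at 75% identity over 92 residues, below the identity required, and was not counted as FZD5. Its level was 5.96, 7.30, 14.7 and 8.47 RPKM in primed replicates 1 to 4 and 1.403, 1.85, 1.51 and 3.64 RPKM in dome-shaped replicates 1 to 4. The FZD5 row stood at 3.95 to 5.06 times that level in primed and 4.49 to 6.25 times in dome-shaped libraries. In both rows primed replicate 3 was the highest library and dome-shaped replicate 1 the lowest.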
